A study of Mus musculus with 22 samples.

Results

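The subject is the epithelium of the mouse lung over the last days before birth. Of the 22 libraries in the series, 4 were chosen by their labels: 2 epithelial libraries of embryonic day 16.5 (E16.5) and 2 of E18.5. All came from wild-type C57BL6 lungs with no further allele or agent, dissected whole from timed pregnancies, and the cells were sorted on CD326, the product of Epcam. The other 18 libraries were endothelial (CD31) and immune (CD45) sorts and epithelium of postnatal days 7 and 28. They entered the fit, and the endothelial libraries served as a second cell fraction over the same interval.

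The library descriptions carried source numbers that differed between the ages. Whether a number stood for an animal, a litter or a pool was not stated, so p-values measure the spread between these libraries, which may be technical. Epithelial E16.5 replicate 1 carried E17 in its description, but E16.5 in its title and age label, and E16 in the header of the deposited matrix. It was used as E16.5. Counts over all genes are also given without it, but not values for each named gene, and many named calls were lost without it. Descriptions of the E16.5 libraries gave a sequencing run and those of the E18.5 libraries gave none, so run and age cannot be told apart.

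Between these ages the mouse lung passes from branching growth to the making of air sacs. Progenitors at the tips of the branching tubes give rise to alveolar type I cells, thin cells across which gas passes, and to type II cells, which store and secrete surfactant. Surfactant is a film of phospholipid and of the proteins SP-A, SP-B, SP-C and SP-D that keeps air sacs open after the first breath. The same days bring a slowing of cell division and a switch of the epithelium from secreting fluid to absorbing it.

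Every library had a total of 228405 units in the deposited matrix, so the values are shares of a fixed sum and read depth is unknown. In the 4 libraries, 9911 to 10415 genes had a value of at least 1. The 10 highest genes took 20.2% and 20.1% of the total at E16.5 and 28.3% and 27.2% at E18.5, and Sftpc alone took 1.69% and 2.00%, then 7.38% and 5.87%. A larger share for a few genes lowers the rest, so values were also divided by median-of-ratios size factors and are then called rescaled. These factors were 1.283 and 1.214 for the E16.5 libraries and 1.002 and 1.000 for the E18.5 libraries. Across the 12880 genes tested, log2(value + 1) correlated at 0.975 between the E16.5 libraries, 0.986 between the E18.5 libraries and 0.933 to 0.936 between ages, as Pearson's r over genes, which are not independent replicates.

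The epithelial label held at both ages. Epcam was at 70.9 and 86.8 at E16.5 and at 49.4 and 44.0 at E18.5. Nkx2-1, the transcription factor that specifies lung epithelium, was at 400 and 411, then at 307 and 352. Both genes had lower values in the E18.5 libraries than in either at E16.5, and neither was called. Of 14 epithelial identity genes tested, none was called in either direction, and Cdh1 (E-cadherin) and Krt18 (a simple-epithelium keratin) had log2 differences of -0.13 and -0.05. Rab25, a GTPase of epithelial membrane recycling, was at 13.0 and 15.0, then at 31.3 and 25.3 (log2 0.96, adjusted p = 0.052), and was called after rescaling.

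Markers of other lung cells were present and uneven between the E16.5 libraries. In E16.5 replicate 1, all 14 endothelial, all 12 mesenchymal and all 5 mesothelial markers tested lay above replicate 2. Summed endothelial markers were at 173 and 27.6 at E16.5 and at 89.8 and 125 at E18.5. For mesenchymal markers the sums were 430 and 136, then 190 and 205. Immune markers summed to between 1.09 and 4.21 in all 4 libraries, C1qa was at 0 in each, and in the immune sort of E16.5 the same list summed to 1308 and 1008. None of the endothelial, mesenchymal or immune markers was called between the ages in the fit with both E16.5 libraries. With replicate 1 set aside, the E16.5 sums of 27.6 (endothelial) and 136 (mesenchymal) lay below both E18.5 sums. The absence of a call therefore does not show that the content of these cells was unchanged. Msln (mesothelin) rose from 24.2 and 17.8 to 86.9 and 93.2, a log2 difference of 2.06 (SE 0.57, adjusted p = 0.029). Hba-x, an embryonic globin, fell from 7.47 and 5.28 to a listed 0 in both E18.5 libraries, a call lost after rescaling (adjusted p = 0.0541).

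Of the 12880 genes, 371 were called higher at E18.5 (2.88%) and 1344 lower (10.4%) at an adjusted p under 0.05, 1715 in all (13.3%). The median log2 difference over all genes was -0.15 as deposited and 0.03 after rescaling, and the split turned with the scale: rescaled values gave 602 higher (4.67%) and 456 lower (3.54%), 1058 in all (8.21%). Of these, 364 (2.83%) were called higher and 456 lower on both scales. Every epithelial call between the ages named below from the fit over all 22 libraries held on both scales unless it is said otherwise. Differences between epithelium and endothelium are named as deposited. Without E16.5 replicate 1 the counts were 127 higher (0.986%) and 294 lower (2.28%), and 75 rises (0.582%) and 199 falls (1.55%) were called whichever of the 4 libraries was left out. Because bulk samples were sequenced, more cells of a type and more RNA per cell cannot be told apart.

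A pooled spread bears on the epithelial genes. The fit shares 1 estimate of the spread over all 22 libraries, and epithelial transcripts varied widely between libraries of the other fractions: summed type II cell genes were at 654 and 70.0 in the endothelial E16.5 libraries and at 5652 and 4100 in the immune E16.5 libraries. The count in the 8 epithelial libraries alone (433 higher, 3.36%, and 1189 lower, 9.23%) is therefore given beside that over all libraries. That fit used deposited values only, so its calls have no rescaled counterpart.

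**Figure D1:**
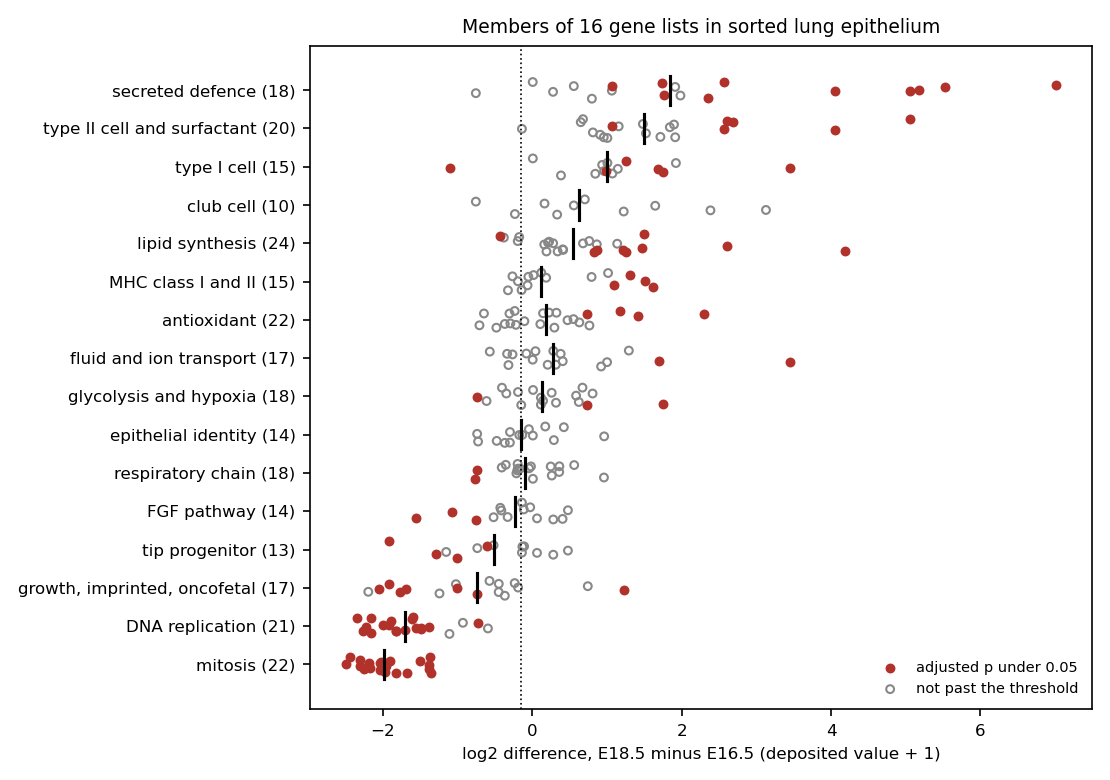
Log2 difference between E18.5 and E16.5 (x axis, deposited value + 1) for the members of 16 gene lists, with the number tested in brackets. Filled points passed an adjusted p of 0.05, open points did not, black bars are list medians and the dotted line is the median of all genes, -0.15. Medians run from 1.84 for secreted defence to -1.99 for mitosis.

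Proteins that type II and airway cells secrete against microbes had the highest median of the gene lists. Of 18 secreted defence genes tested, 10 rose and none fell (background 2.88% higher), and the list's median log2 difference was 1.84 against -0.15 over all genes. Chil1, a chitinase-like lectin, had values of 1.26 and 1.38 at E16.5 and 298 and 302 at E18.5. Its log2 difference of 7.02 (SE 0.53, adjusted p = 1.42e-05) was the largest of any listed gene. The lysozymes, which cut bacterial cell walls, also rose: Lyz1 went from 15.53 and 22.5 to 974 and 851 and Lyz2 from 14.8 and 14.7 to 546 and 506.4. In both genes the E18.5 libraries lay far above the E16.5 libraries, with log2 differences of 5.53 (SE 0.58) and 5.06 (SE 0.53) and adjusted p-values of 0.000104 and 0.000102. Lyz1 and Lyz2 are near-identical neighbours on chromosome 10, so how reads were shared between them is uncertain.

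Lcn2, a lipocalin that binds bacterial siderophores, rose from 2.11 and 1.75 to 92.1 and 120, a log2 difference of 5.18 (SE 0.60). Sftpd, which encodes the collectin SP-D, rose from 2.01 and 1.53 to 47.0 and 42.9, with a log2 difference of 4.06 (SE 0.51, adjusted p = 0.00034). These 5 genes kept their call whichever library was left out. Cxcl15 (lungkine) went from 156 and 172 to 1009 and 943, Retnla (a resistin-like protein) from 28.5 and 41.4 to 170 and 191, and Pglyrp1 (a peptidoglycan binder) from 1.51 and 1.28 to 7.25 and 7.00. Slpi, a protease inhibitor, rose from 0.179 and 0 to 1.66 and 3.93 as deposited but not after rescaling (adjusted p = 0.054). Sftpd, Sftpa1, Lyz2, Cxcl15 and Il33 belong to both this list and the type II cell list.

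Because the neighbours Lyz1 and Lyz2 rose together, the bases before their starts are shown. Both lie on the minus strand of chromosome 10 of GRCm38, Lyz1 at 117287797-117292868 and Lyz2 at 117277331-117282321 (GENCODE M21). The stretches, from RefSeq on GRCm38.p6, run 5′ to 3′ and end just before the annotated gene. They were searched on both strands for TTGCNNAA, a C/EBP type motif, and CAAGTG, an NKX2-1 type motif, and capitals mark each match as it reads on the gene's strand. None of the matches overlap. The Lyz1 stretch of 250 bases is chr10:117292869-117293118 and the Lyz2 stretch, shortened to 201 bases where the annotated gene begins, is chr10:117282322-117282522.
Lyz1: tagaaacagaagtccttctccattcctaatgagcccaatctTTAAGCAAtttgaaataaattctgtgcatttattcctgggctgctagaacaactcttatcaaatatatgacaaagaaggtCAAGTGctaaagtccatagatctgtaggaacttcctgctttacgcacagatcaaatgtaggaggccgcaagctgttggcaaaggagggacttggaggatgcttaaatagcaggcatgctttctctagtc
Lyz2: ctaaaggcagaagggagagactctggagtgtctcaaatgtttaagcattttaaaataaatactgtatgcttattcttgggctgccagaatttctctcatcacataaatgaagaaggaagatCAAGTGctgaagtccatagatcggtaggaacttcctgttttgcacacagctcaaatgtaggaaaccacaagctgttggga
Both hold CAAGTG, beginning 129 bases before the RefSeq start, and Lyz1 alone holds TTGCNNAA, beginning 209 bases before it. The type II cell and secreted defence lists held 12 different genes called higher as deposited. Among the 10 of these with a RefSeq promoter, 4 held TTGCNNAA and 3 held CAAGTG in the 250 bases before the start. Lyz1 and Lyz2 are both among the 3 with CAAGTG, at the same place in similar stretches, so the 3 are not separate cases. Of the 9688 tested genes with a promoter, 7.74% and 9.63% held them. A match is a run of letters and does not show that a factor binds there.

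Surfactant genes had higher values at E18.5 but differed in how they met the test. In the type II cell list of 20 genes, 19 had a higher value in both E18.5 libraries than in either at E16.5, as did 19.8% of all genes tested. Of the 20, 6 were called higher in the fit over all libraries and 15 in the epithelial libraries alone (backgrounds 2.88% and 3.36%). Sftpc, which encodes SP-C, went from 3847 and 4568 to 16845 and 13405. Its log2 difference of 1.84 had an SE of 0.97 in the fit over all libraries (adjusted p = 0.24) and of 0.38 in the epithelial libraries alone (adjusted p = 0.022). Sftpa1 (SP-A) went from 418 and 574 to 2059 and 1660, and Sftpb (SP-B) from 179 and 224 to 463 and 432. Neither was called over all libraries, and both were called in the epithelial libraries alone, at adjusted p = 0.015 and 0.025, with log2 differences of 1.91 and 1.16. In all 3 genes the ages did not overlap.

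Machinery of the lamellar body, the organelle that stores surfactant, followed the same pattern. Abca3, its lipid transporter, was at 26.8 and 28, then at 59.1 and 53.0, and Lamp3, a membrane protein of mature type II cells, at 35.0 and 44.0, then at 119 and 110.6. The log2 differences were 1.01 for Abca3 (adjusted p = 0.0675) and 1.52 for Lamp3 (adjusted p = 0.0925) over all libraries, and both were called in the epithelial libraries alone (0.045 and 0.00467). Abca3 was also called after rescaling (0.0341). Slc34a2, a phosphate carrier of type II cells, went from 399 and 477 to 1685 and 1572 (adjusted p = 0.17 and 0.0093). Cebpa, a transcription factor of type II cell maturation, went from 36.3 and 39.6 to 115 and 101 (adjusted p = 0.12 and 0.028).
Both fits called Hc (complement C5), from 4.65 and 5.14 to 37.7 and 36.2, and Fabp5, a fatty acid carrier, from 29.7 and 34.1 to 201 and 196, with log2 differences of 2.69 and 2.60. Etv5, a target of FGF signalling that marks tips and type II cells, lay slightly lower at E18.5 and was the exception of the list, at 50.2 and 58.1, then at 49.0 and 48.9.

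**Figure D2:**
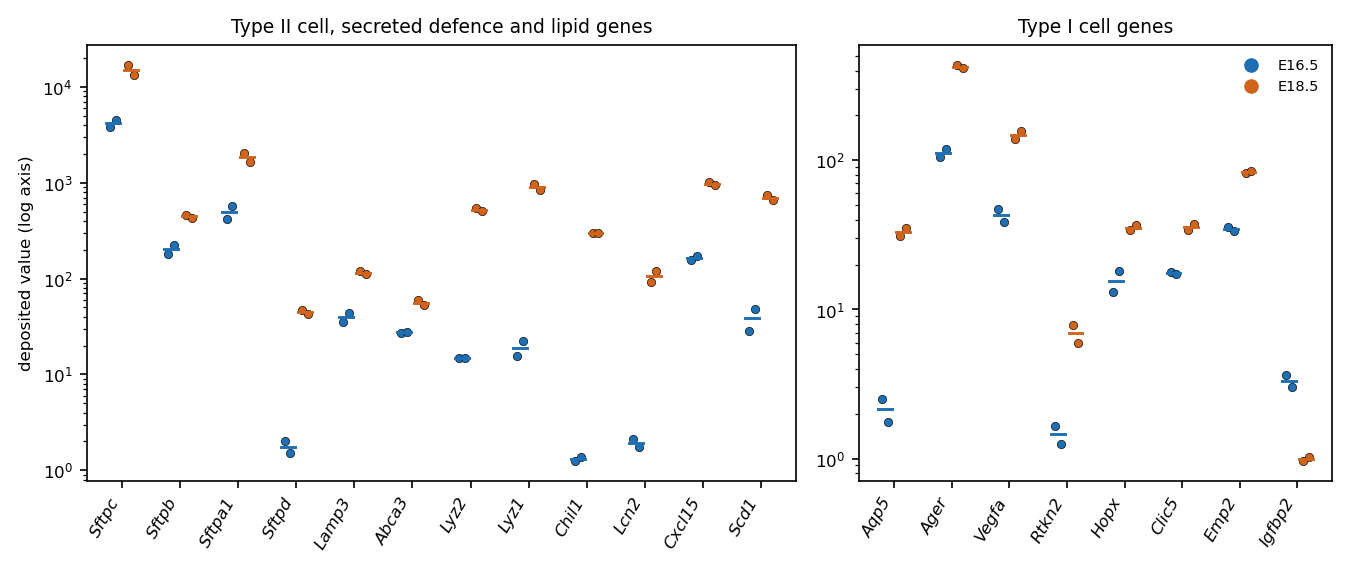
Deposited value (y axis, log scale) of type II cell, secreted defence and lipid genes and of type I cell genes in each library, with bars at the mean of 2 libraries per age. Every gene shown lies higher in both E18.5 libraries except Igfbp2, which lies lower; Chil1 spans the widest range, from 1.26 to 302.

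Type I cell genes gave 6 calls. Of 15 tested, 5 rose and 1 fell (backgrounds 2.88% and 10.4%), and the median log2 difference was 1.01. In the epithelial libraries alone 10 rose and 1 fell (backgrounds 3.36% and 9.23%). Aqp5, a water channel of type I cells, went from 2.52 and 1.77 to 31.2 and 35.3, a log2 difference of 3.45 (SE 0.47, adjusted p = 0.00056) that kept its call without each library. Vegfa, a growth factor for capillaries made by type I cells, rose from 47.5 and 38.9 to 138 and 157 (log2 1.75), and Rtkn2, a marker of type I cells, from 1.65 and 1.25 to 7.82 and 6.00 (log2 1.68). Emp2 and Clic5, a membrane protein and a chloride channel family member, rose by 1.26 and 0.98 on the log2 scale. Ager, which encodes the receptor RAGE, was at 105 and 119, then at 434 and 418, with a log2 difference of 1.92 that was called in the epithelial libraries alone (adjusted p = 0.015, against 0.115 over all). Hopx, a homeodomain protein of type I cells, went from 13.2 and 18.1 to 34.1 and 36.7 and was called after rescaling (adjusted p = 0.038) and not before (0.063).
The exception was Igfbp2, a binding protein for insulin-like growth factors used as a late type I marker, which fell from 3.61 and 3.02 to 0.966 and 1.03. That fall of 1.11 on the log2 scale was not called after rescaling (adjusted p = 0.15).

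Lipid synthesis, which supplies surfactant phospholipid, had a positive median. Of 24 genes tested, 8 rose and 1 fell (backgrounds 2.88% and 10.4%), with a median log2 difference of 0.55 (0.85 rescaled). In the epithelial libraries alone 5 rose and 1 fell (backgrounds 3.36% and 9.23%). None of the list's genes for making phosphatidylcholine, a surfactant phospholipid, was called on either scale or in those libraries. Scd1, which desaturates fatty acids, went from 28.5 and 48.4 to 738 and 659, a log2 difference of 4.19 (SE 0.73, adjusted p = 0.0030) that held without each library. Fasn (fatty acid synthase) rose from 88.9 and 86.9 to 262 and 236. Srebf1, the transcription factor of fatty acid synthesis, and Insig1, which restrains its processing, rose by 0.86 and 1.21 on the log2 scale. Elovl1 (fatty acid elongation) and Agpat2 (phosphatidic acid synthesis) rose by 1.25 and 0.82. These 4 were not called in the epithelial libraries alone, at adjusted p-values from 0.0675 to 0.096. Scd2, the fetal desaturase, went from 396 and 422 to 950 and 853 and was called after rescaling (adjusted p = 0.031, against 0.064 as deposited) and in the epithelial libraries alone (0.0491). Elovl6, another elongase, was the called fall at values below 1, from 0.579 and 0.341 to 0.076 and 0.078, and lost its call after rescaling (adjusted p = 0.090).

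Genes of glycogen, the store that fetal type II cells draw on, gave 1 call. Of 15 tested, 1 rose (background 2.88% higher): Pgm2, which interconverts sugar phosphates, from 1.69 and 2.10 to 4.32 and 3.92. Ppp1r3c, which targets phosphatase to glycogen, was at 41.7 and 37.5, then at 62.2 and 73.1 (adjusted p = 0.16).
Water channels led the fluid transport list, where 2 of 17 rose (background 2.88% higher). These were Aqp5, above, and Aqp1, from 14.1 and 15.8 to 48.7 and 53.1 (log2 1.70). Aqp1 is also a gene of capillary endothelium, whose summed markers are given above; their part in its rise was not tested. The subunits of ENaC, the sodium channel that drives fluid out of the airspace, had values of 16.8 and 19.2, then 44.9 and 46.0 (Scnn1a), 0.819 and 0.423, then 0.967 and 1.31 (Scnn1b), and 8.04 and 9.23, then 16.0 and 18.5 (Scnn1g). All 3 had higher values in both E18.5 libraries and none was called in either fit. Cftr, the chloride channel of fluid secretion, was at 4.32 and 4.69, then at 6.51 and 5.24, and was not called. Of 14 glucocorticoid response genes, 1 rose (background 2.88% higher). This was Cebpd, a transcription factor, from 0.199 and 2.08 to 4.15 and 8.61 (log2 1.87, adjusted p = 0.029), with E16.5 libraries far apart.

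Genes of cell division fell as a block. All 22 mitosis genes fell and 18 of 21 DNA replication genes fell, with none higher, against a background of 10.4% lower. After rescaling, 14 and 10 were still called lower (background 3.54%), and in the epithelial libraries alone 22 and 20 (background 9.23%). Median log2 differences were -1.99 and -1.71. In all 43 genes both E18.5 libraries lay below both E16.5 libraries, which was so for 45.7% of all genes tested. The E18.5 mean of a mitosis gene was at a median of 21.0% of its E16.5 mean, with extremes of 14.4% (Ccnb2) and 36.3% (Cdc20), and for replication genes the median was 19.6%. Most of these calls were lost in at least 1 of the fits that left a library out, and most were lost without E16.5 replicate 1.

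Among replication genes, subunits of the MCM helicase that opens DNA fell together. Mcm2 went from 16.5 and 16.4 to 2.74 and 2.69, Mcm3 from 15.3 and 15.8 to 2.73 and 2.64, and Mcm4 from 22.5 and 24.8 to 5.39 and 4.97. Gins2, a partner of that helicase, fell from 15.9 and 17.4 to 2.99 and 2.04, the largest fall in the list at 2.34 on the log2 scale (SE 0.33, adjusted p = 0.00075). Cdc6, which loads the helicase, fell by 2.15 and Rrm2, the regulated subunit of ribonucleotide reductase, by 2.26. Pcna, the sliding clamp of DNA polymerase, fell from 152 and 167 to 51.5 and 51.7, and lost its call after rescaling (adjusted p = 0.13), as Rrm2 did (0.058).

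Of the mitosis genes, Ccnb2 (cyclin B2) fell from 22.6 and 29.6 to 3.83 and 3.69, by 2.50 on the log2 scale (SE 0.40, adjusted p = 0.0019). Ccna2 (cyclin A2) fell from 118 and 121 to 22.7 and 20.0 and Top2a, which untangles DNA, from 86.4 and 84.3 to 16.3 and 16.5. Mki67, the proliferation antigen Ki-67, fell from 260 and 274 to 56.4 and 59.7, by 2.18 on the log2 scale. The mitotic kinases Aurkb and Plk1 fell by 2.30 and 1.82. Ube2c, which marks cyclins for destruction, fell from 185 and 272 to 43.8 and 48.6 and missed the threshold after rescaling (adjusted p = 0.0525).
Summed over the mitosis list, values went from 1007 and 1099 to 218 and 227. At P7 the deposited sums were 192 and 257, on either side of the E18.5 libraries. Size factors at P7 were 0.834 and 0.9935, below those at E18.5, so this order holds for deposited values only.

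Promoters of these genes are known for CCAAT boxes, bound by NF-Y, and for the cell cycle homology region TTTGAA. Ccnb2 and Top2a are shown as the genes among the largest falls with a RefSeq promoter, 250 bases before the start on the gene's strand (GRCm38.p6). Capitals mark CCAAT and TTTGAA on either strand, so ATTGG and TTCAAA are matches on the opposite strand. Ccnb2 lies on the minus strand of chromosome 9 at 70407692-70421547, its stretch being chr9:70421555-70421804. Top2a lies on the minus strand of chromosome 11 at 98992943-99024189, its stretch being chr11:99024190-99024439.
Ccnb2: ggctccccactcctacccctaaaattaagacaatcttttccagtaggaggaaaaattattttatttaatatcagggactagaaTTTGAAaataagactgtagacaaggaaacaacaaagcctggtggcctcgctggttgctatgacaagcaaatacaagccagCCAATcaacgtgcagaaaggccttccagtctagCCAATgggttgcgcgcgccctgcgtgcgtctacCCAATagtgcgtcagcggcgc
Top2a: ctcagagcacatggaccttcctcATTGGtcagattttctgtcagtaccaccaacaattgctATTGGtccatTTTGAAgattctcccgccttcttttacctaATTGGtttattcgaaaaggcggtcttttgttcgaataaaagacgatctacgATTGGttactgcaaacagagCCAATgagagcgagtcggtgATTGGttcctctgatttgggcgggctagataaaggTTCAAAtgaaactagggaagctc
Ccnb2 holds 3 CCAAT boxes, beginning 87, 54 and 21 bases before the start, and Top2a holds 6. Of the 40 replication and mitosis genes called lower, 33 had a promoter in the table, and 27 of these (81.8%) held CCAAT, against 35.9% of the promoters of tested genes. TTTGAA was in 9 (27.3%, against 11%) and the E2F type motif TTTNNCGC in 6 (18.2%, against 6.99%). TTTGAA was also in 4 of the 10 promoters (40%) of the type II cell and secreted defence risers. These shares describe letters in a window and were not tested.

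Inhibitors of the cell cycle gave 1 call. Of 11 tested none was called higher and 1 was called lower (backgrounds 2.88% and 10.4%). This was Cdkn2c (p18), from 4.96 and 3.26 to 1.43 and 0.923, a call lost after rescaling (adjusted p = 0.14). Cdkn1c (p57), an imprinted inhibitor, was at 514 and 457, then at 219 and 190, and was called in the epithelial libraries alone (adjusted p = 0.027, against 0.064 over all).

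Fetal growth genes gave more falls than rises. Of 17 tested, 6 fell, 1 rose and 10 were not called, and after rescaling 5 fell and 1 rose (backgrounds 10.4% and 3.54% lower). Igf2, the fetal insulin-like growth factor, went from 1058 and 1205 to 260 and 282, a log2 difference of -2.06 (SE 0.42, adjusted p = 0.0068). H19, the imprinted noncoding RNA next to it, went from 4243 and 4669 to 881 and 1069 (log2 -2.20) and was called in the epithelial libraries alone (adjusted p = 0.019, against 0.155 over all). Grb10, an imprinted adaptor that restrains insulin signalling, fell from 58.8 and 62.9 to 18.7 and 17.7. Peg3, an imprinted zinc finger protein, fell from 146 and 131 to 41.8 and 37.6, but not after rescaling (adjusted p = 0.095). Igf2bp1, an oncofetal RNA-binding protein that binds Igf2 transcripts, fell from 4.75 and 4.33 to 2.36 and 2.26. Meg3, an imprinted noncoding RNA, rose from 85.4 and 67.2 to 177 and 182, with a log2 difference of 1.23 (SE 0.27, adjusted p = 0.010).

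Genes of the tip progenitors fell in part. Of 13 tested, 4 fell and none rose, and 2 fell after rescaling (backgrounds 10.4% and 3.54% lower). The median log2 difference was -0.52. Sox11 and Hmga2 are also counted in the growth list. Sox11, a transcription factor of immature cells, went from 56.8 and 57.1 to 15.2 and 13.4 (log2 -1.92, SE 0.27), and Hmga2, a chromatin protein of fetal progenitors, from 2.86 and 4.12 to 1.16 and 1.25. Both were called on both scales and without each library. Mycn, which drives division at the tips, fell from 14.1 and 14.7 to 5.95 and 4.67 and Wnt7b, an epithelial Wnt ligand, from 2.00 and 2.27 to 1.03 and 1.09, each as deposited only (rescaled adjusted p = 0.17 and 0.11). Sox9, the marker of distal tips, was at 83.3 and 107, then at 42.2 and 41.4, a log2 difference of -1.15 that was called in the epithelial libraries alone (adjusted p = 0.017, against 0.13). Id2, another tip marker, was at 186 and 226, then at 198 and 182, with overlapping ages.

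**Figure D3:**
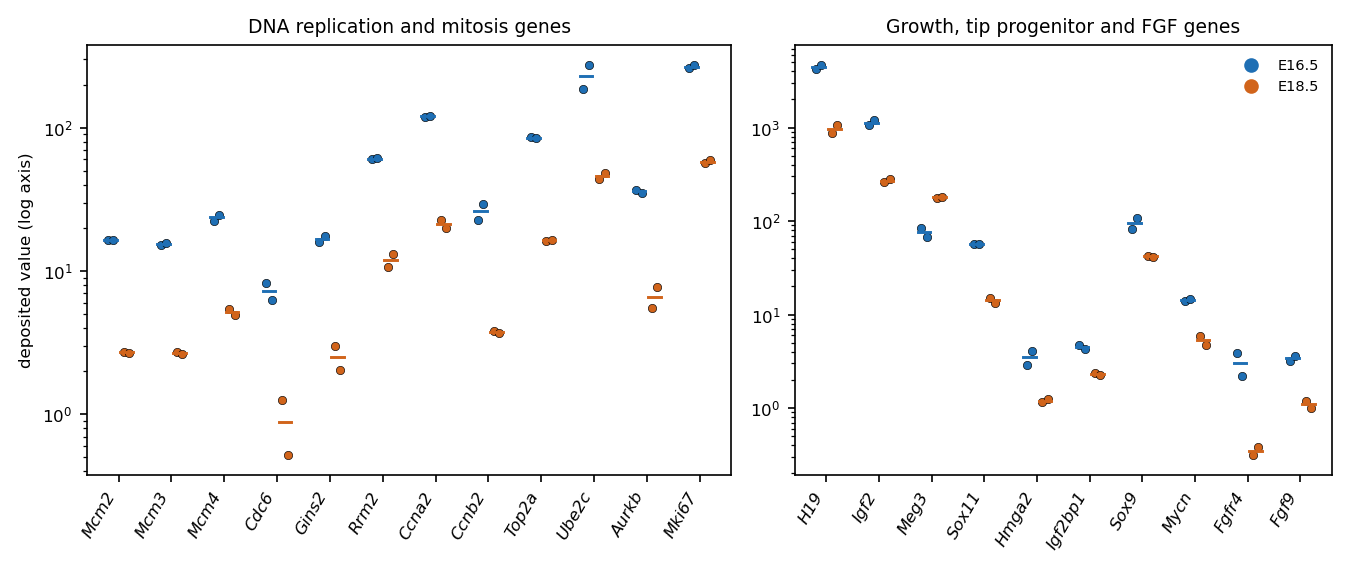
Deposited value (y axis, log scale) of DNA replication and mitosis genes and of growth, tip progenitor and FGF genes in each library, with bars at the mean of 2 libraries per age. Every gene shown lies lower in both E18.5 libraries except Meg3, which lies higher at 177 and 182.

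In FGF signalling, which drives branching, 3 of 14 genes fell and none rose (background 10.4% lower). Fgfr4 fell from 3.88 and 2.23 to 0.312 and 0.381, a log2 difference of -1.56 (SE 0.17, adjusted p = 0.00017), and Fgfr1 fell from 2.09 and 1.57 to 0.535 and 0.807, though not after rescaling (adjusted p = 0.12). Fgfr2, the main receptor of distal epithelium, was at 40.6 and 48.3, then at 55.4 and 52.6, and was not called. The ligand Fgf9 fell from 3.18 and 3.64 to 1.19 and 1.01 (log2 -1.07, adjusted p = 0.00060).

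In the lists of Wnt, BMP and TGF-beta, Notch, and Hedgehog and Hippo genes, at most 2 members fell and at most 1 rose, against 10.4% and 2.88% of all genes. Of 19 Wnt genes, 1 rose and 2 fell: Nkd1, a feedback inhibitor, from 2.14 and 2.04 to 5.08 and 6.41, and, besides Wnt7b, the ligand Wnt5a, from 3.17 and 1.87 to 1.12 and 0.542. Of 23 BMP and TGF-beta genes, 1 rose and 1 fell, the ligand Tgfb2, from 13.7 and 17.4 to 7.33 and 7.69. Bmp4, the ligand of distal tips, was at 97.3 and 144, then at 67.1 and 74.4, and was not called. In the Notch list of 15, the targets Hes1 and Nrarp fell by 0.88 and 1.05 on the log2 scale. Of 15 Hedgehog and Hippo genes, Gli3, the Hedgehog repressor, fell from 1.86 and 2.00 to 0.655 and 0.663 and Tead2, a partner of the Hippo effectors, from 5.61 and 4.83 to 2.05 and 1.77. The falls of Wnt5a, Tgfb2, Hes1, Nrarp and Tead2 were not called after rescaling, at adjusted p-values of 0.083, 0.15, 0.18, 0.16 and 0.12. Shh, the epithelial ligand of Hedgehog signalling, was at 50.9 and 50.7, then at 45.5 and 47.0.

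Airway lineages differed among themselves. None of 10 club cell genes was called over all libraries and 4 were called higher in the epithelial libraries alone (background 3.36%). Scgb1a1, the main club cell secretoglobin, was at 30.2 and 30.9, then at 158 and 170, a log2 difference of 2.39 (adjusted p = 0.0705 over all, 0.00425 alone). Scgb3a1, another secretoglobin, was at 2.57 and 2.10, then at 14.7 and 53.0, with a wide gap between the E18.5 libraries. Cbr2, a carbonyl reductase of club cells, was at 218 and 187, then at 598 and 673 (adjusted p = 0.016 alone, 0.13 over all).
Of 13 ciliated cell genes tested, 2 fell (15.4%) and 1 rose (7.69%), against backgrounds of 10.4% lower and 2.88% higher. Mcidas, which starts multiciliated differentiation, fell from 12.7 and 15.9 to 4.48 and 4.11. Rfx3, a transcription factor of cilium genes, fell by 0.67 on the log2 scale as deposited only (rescaled adjusted p = 0.067). Sntn, a protein of mature cilia tips, rose from 0.248 and 0.261 to 1.29 and 1.01.

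In the fit over all libraries, calls among antigen presentation and antioxidant genes were rises (background 2.88% higher). Of 15 genes of antigen presentation 4 rose: the class I heavy chains H2-T23, H2-D1 and H2-K1, and Tapbp, the chaperone that loads them. H2-K1 went from 42.1 and 34.6 to 99.6 and 92.4 and H2-D1 from 24.5 and 29.3 to 75 and 82, and since class I genes resemble each other, their shares of reads are uncertain. Irf1, a transcription factor that induces class I genes, was the 1 riser of 12 interferon genes (background 2.88%), from 4.53 and 4.71 to 13.7 and 11.5.
Of 22 antioxidant genes, 4 rose, and in the epithelial libraries alone 2 rose and 1 fell (backgrounds 3.36% and 9.23%). Gpx4, which reduces lipid peroxides, went from 1.36 and 2.00 to 12.4 and 11.9 (log2 2.31) and Prdx5, a peroxiredoxin, from 5.39 and 5.21 to 15.4 and 16.2. The superoxide dismutases Sod2 and Sod3 rose by 0.73 and 1.17 on the log2 scale, Sod3 as deposited only (rescaled adjusted p = 0.0549), and neither was called in the epithelial libraries alone.

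In energy metabolism, Gapdh of glycolysis and Atp5b and Cycs of respiration fell by 0.74, 0.77 and 0.74 on the log2 scale as deposited, and none was called after rescaling (adjusted p = 0.31, 0.23 and 0.21). Bnip3, a hypoxia-induced mitophagy gene, rose from 10.3 and 8.93 to 16.3 and 17. In the secretory pathway, 3 of 20 genes rose and 3 fell (15% each, backgrounds 2.88% and 10.4%). After rescaling 3 rose and 1 fell (backgrounds 4.67% and 3.54%). Rab27a, a GTPase of regulated secretion, rose from 2.14 and 2.87 to 7.95 and 7.83, with Herpud1 and Ddit3 of the stress response. The folding enzyme Pdia3 fell from 133 and 126 to 65.8 and 58.5 on both scales, while the folding proteins Calr and Pdia4 fell as deposited only (rescaled adjusted p = 0.21 and 0.26).
Of 25 junction and matrix genes, 1 was called, a fall (background 10.4% lower). Cldn6, a claudin of immature epithelium, fell from 404 and 575 to 73.0 and 67.2, by 2.76 on the log2 scale (SE 0.66, adjusted p = 0.014). Ier3 was the 1 called of 14 immediate early genes, which respond to handling of cells (background 2.88% higher), and rose from 17.4 and 29.6 to 103 and 72.7. In that list E16.5 replicate 2 lay above replicate 1 in 12 of 14, and Egr1 was at 77.3 and 240, then at 46.9 and 52.0.

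Outside the lists, C3, the central complement protein, gave the largest rise that the naming rule admits, from 1.48 and 0.715 to 34.1 and 32.7 (log2 4.06, SE 0.58, adjusted p = 0.00076). Gdpd2, a phosphodiesterase, rose from 2.12 and 1.52 to 34.5 and 35.2, Vnn1, a pantetheinase, from 3.27 and 3.90 to 43.9 and 48.9, and Spink5, a protease inhibitor of epithelia, from 0.390 and 0.286 to 10.5 and 10.1. Ckmt1 (mitochondrial creatine kinase), Col6a1 (a collagen VI chain), S100g (a calcium-binding protein) and Tnfsf13 (a cytokine of the TNF family) rose by 3.00, 2.98, 2.93 and 2.73 on the log2 scale. Col6a1 was uneven at E16.5, at 8.23 and 1.95, and stood at 39.6 and 41.0 at E18.5. The other rises were Bex2, Sphk1 (sphingosine kinase), Olfr171 and Spock2 (a matrix proteoglycan), between 2.34 and 2.64.

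Largest among the falls outside the lists, after a histone gene, was Mdk (midkine), a heparin-binding growth factor of fetal tissue, which went from 101 and 107 to 12.1 and 9.35 (log2 -3.17, SE 0.44, adjusted p = 0.00060). Vcan, a proteoglycan of fetal matrix, fell from 20.9 and 19.3 to 2.20 and 1.63, Fmod (fibromodulin) from 125 and 132 to 20.3 and 22, and Cym, a protease gene, from 10.3 and 17.8 to 1.22 and 1.84. Slfn9, Fignl1 and Mex3a, an RNA-binding protein, fell by 2.69, 2.46 and 2.40. The remaining 5 of the 12 were the histone genes Hist1h2ag, Hist1h2bh, Hist3h2ba, Hist1h2ab and Hist1h3i, falling by 2.41 to 3.26 on the log2 scale. Histone genes have near-identical copies, so each is uncertain by itself, and of them only Hist1h2ag and Hist1h2bh were called after rescaling, as Mex3a was not (adjusted p = 0.072).

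Over the same interval, the endothelial libraries gave a test of whether a change differed between fractions. Of 12880 genes, 106 differed (0.823%): in 102 (0.792%) the epithelial change was the lower and in 4 (0.0311%) the higher. Part of the contrast lay in the endothelial libraries, where 91 of the 106 had a positive difference and 60 were called higher. All genes gave 1504 calls there (11.7%). Those libraries held epithelial transcripts, and more of them at E18.5: the summed epithelial identity genes were at 91.2 and 9.79 at E16.5 and at 298 and 454 at E18.5. In 93 of the 106 the epithelial E16.5 mean lay above both endothelial means. Their part in the differences was not tested. The count rested on single libraries: it was 12 without endothelial E16.5 replicate 2, whose description reads E18, and 4 without it and epithelial E16.5 replicate 1. Epithelial and endothelial libraries of an age shared the source numbers in their descriptions, and with the source as a block 268 differed, 17 higher and 251 lower.
Among the 106 genes, 42 were called higher in endothelium and not called in epithelium. Another 42 of the 106 fell in epithelium with no call in endothelium. Fgfr4 was 1 of them, at 0.147 and 0.322, then at 0.639 and 0.498 in endothelium, a difference between fractions of -1.91 on the log2 scale (SE 0.25, adjusted p = 0.00217). Mcidas, Fmod, Cym and Hmga2 were also called lower in epithelium and not called in endothelium, with differences of -2.03, -3.09, -2.65 and -1.11. In the endothelial E16.5 libraries Mcidas was at 0.0898 and 0.105, Cym at 0.477 and 0.0983 and Hmga2 at 0.697 and 0.532. At such low values, as for Fgfr4, a fall in endothelium could hardly have been called.

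**Figure D4:**
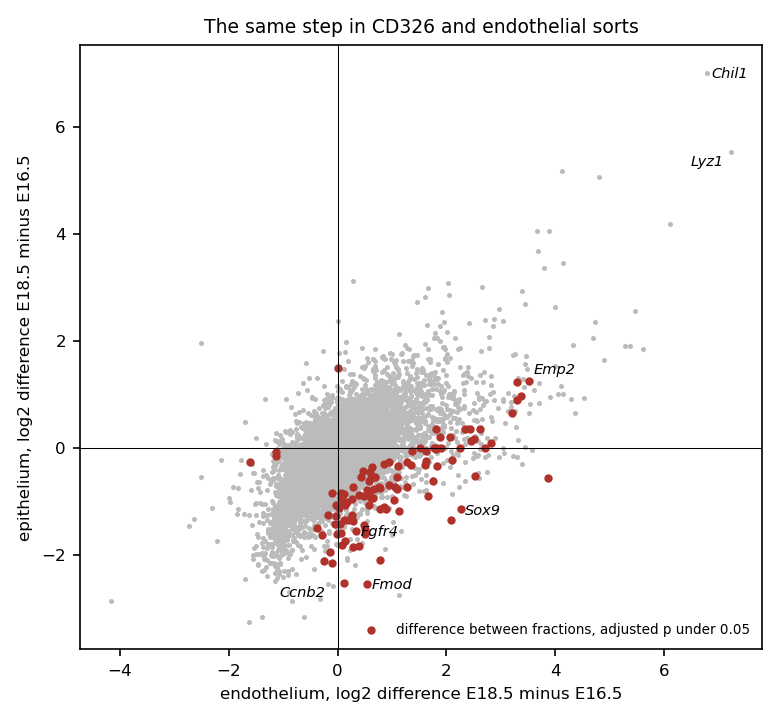
Log2 difference between E18.5 and E16.5 in epithelium (y axis) against the same in endothelium (x axis) for 12880 genes. Red points are the 106 genes whose change differed between fractions at an adjusted p of 0.05. In 102 of them the epithelial change is the lower, Fgfr4, Fmod and Sox9 included, while Chil1 and Lyz1 are high in both fractions.

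Later epithelial libraries place the E18.5 values within the longer course, given as deposited levels without a test. Size factors were 0.834 and 0.9935 at P7 and 0.608 and 0.590 at P28, below those at E18.5. Rescaling would raise the later ages against E18.5, so these comparisons hold for deposited values only. Sftpc was at 24016 and 13244 at P7 and 32532 and 36645 at P28, so the P7 libraries straddled the E18.5 values of 16845 and 13405. Lyz2 stood at 3291 and 2992, then at 10033 and 14945, far above E18.5, while Chil1, at 242 and 232, then at 575 and 583, was higher at E18.5 than at P7. Scd1 was lower at P7 than at E18.5, at 300 and 461, and higher at P28, at 2262 and 3247. Ager, at 813 and 390, then at 325 and 440, overlapped its E18.5 values at both later ages.
Among the genes lower at E18.5, H19, Igf2 and Sox9 were lower still at both later ages. H19 was at 95.0 and 38.9 at P7 and at 0.895 and 0.0997 at P28, and Igf2 at 30.6 and 34.3, then at 2.81 and 1.499. Sox9 was at 15.4 and 18.6, then at 1.01 and 0.494. Ccnb2, at 5.36 and 8.20 at P7, lay above its E18.5 values of 3.83 and 3.69, and Mcm2, at 4.46 and 2.67, straddled its own.

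**Figure D5:**
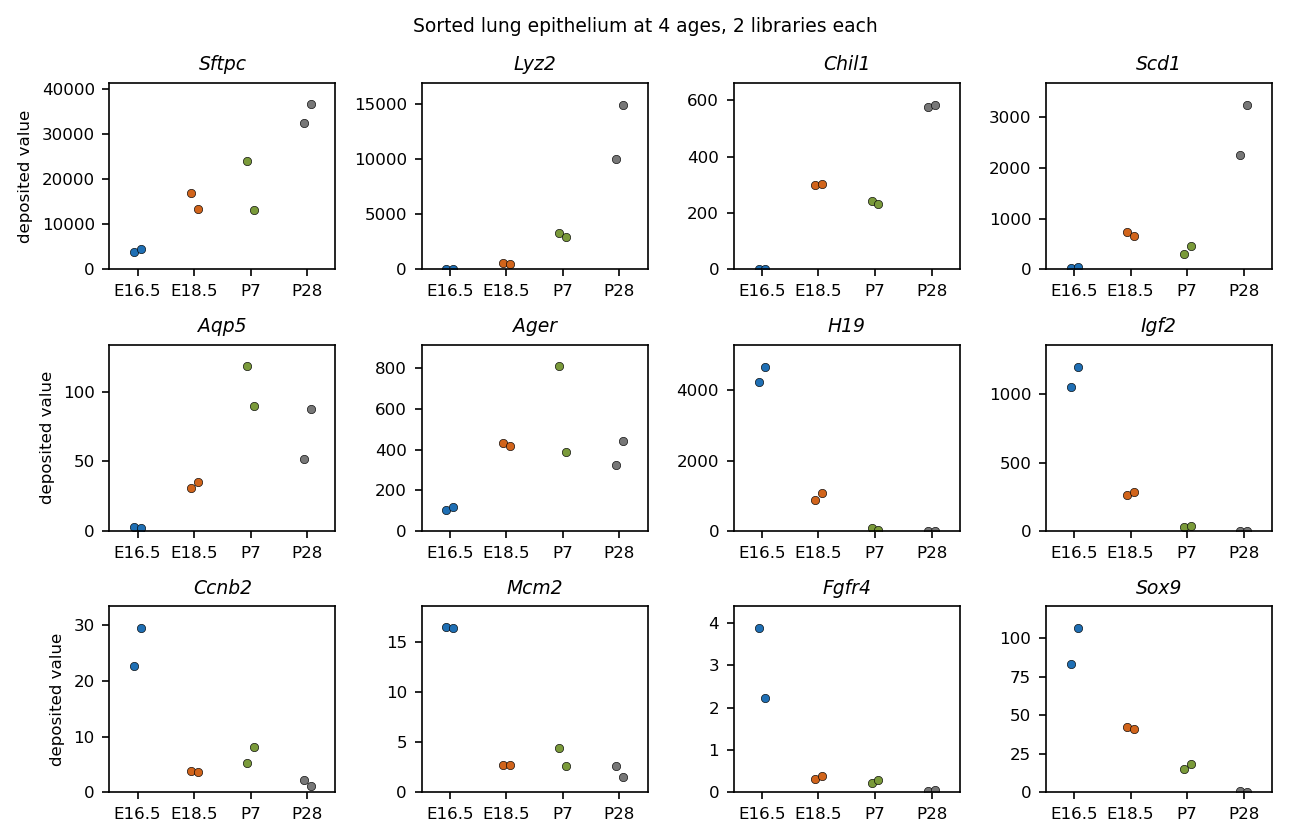
Deposited value (y axis, from 0) of 12 genes in the 2 epithelial libraries of each age (x axis: E16.5, E18.5, P7 and P28). Sftpc, Lyz2 and Chil1 are highest at P28, H19 and Igf2 are lower at each later age, and Ccnb2 and Mcm2 are highest at E16.5.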

How the data were processed

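RNA of sorted lung cells was sequenced as read pairs. Reads were aligned with TopHat2 2.0.9 to mm10 (GRCm38), per the submitters' processing notes; which quantifier was used, and in which unit, is not given in the sources used here. As 1 file, the authors deposited a matrix of normalised signal with 24371 rows, in which every library sums to 228405, so depth is unknown and no counting interval could be given. Of its rows, 27 carried names turned into dates (at most 0.0969% of a library) and were left out.

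The 12880 genes that reached 1 in 2 or more of the 22 libraries were tested on log2(value + 1) with limma 3.58.1 in R 4.3.3, with a trend, a mean for each of 11 groups and Benjamini-Hochberg adjustment over all genes at a threshold of 0.05. Fold differences are on that scale, which understates the change of low genes. The difference between epithelial and endothelial changes was a contrast in the same fit. Rescaled values were divided by median-of-ratios size factors from 9882 genes.

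The members and gene lists were chosen with earlier results of these data known, so lists are described by counts and medians, with no set test. Named genes are Epcam and Nkx2-1, up to 8 members of a list by size of difference plus members whose role is described, and the 12 largest rises and 12 largest falls outside the lists with separate groups and a higher mean of at least 10. In simulated data of this design the fit recovered 24%, 82% and 98% of genes changed by 1, 2 and 3 on the log2 scale. At 0.5 it recovered 0%. There were 4 false calls among the unchanged genes of the 12880 simulated. Noise was independent, with the same spread for a gene in every group and no shift of composition, so these figures need not hold for the real libraries. The changed genes were drawn only from those whose mean log2(value + 1) in the 4 libraries stood for a value above 10. Recovery of lower genes was not simulated. Alternatives covered the pseudocount, filter, scaling, libraries fitted, replicate block and size limit. Positions are from GENCODE M21 on GRCm38 and promoters from RefSeq on GRCm38.p6. Some members of the lists are not reported here.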

Additional observations from a re-analysis of the deposited data

Results flagged for a closer look

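The step from E16.5 to E18.5 differed between epithelium and endothelium, by the limma contrast of the changes, in 11 of the genes named. Each difference below is the epithelial minus the endothelial log2 change. Sox9 differed by -3.42 (SE 0.68, adjusted p = 0.0318): epithelium went from 83.3 and 107 to 42.2 and 41.4, and endothelium from 6.13 and 0.986 to 14.5 and 20.2. Fmod differed by -3.09 and Cym by -2.65, each called lower in epithelium and not called in endothelium. Mcidas (-2.03), Fgfr4 (-1.91) and Hmga2 (-1.11) had the same pattern of calls. Cym, Mcidas, Fgfr4 and Hmga2 lay below 1 in both endothelial E16.5 libraries, so a fall there could hardly have been called.

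Rab25 differed by -2.41, Emp2 by -2.26 and Meg3 by -2.06, and all 3 had higher values at E18.5 in both fractions. Emp2 went from 35.5 and 33.4 to 82.0 and 85.2 in epithelium and from 4.31 and 1.77 to 34.5 and 53.5 in endothelium. Fgf9 differed by -1.64 and was called lower in epithelium and higher in endothelium, where it was at 0.0952 and 0.0256, then at 0.636 and 0.511. Bmpr1a, a BMP receptor, differed by -1.54, at 11.3 and 11.7, then at 9.49 and 9.19 in epithelium, and at 1.30 and 1.03, then at 3.64 and 4.86 in endothelium. Endothelial libraries carried more of the epithelial identity genes at E18.5 (sums of 298 and 454, against 91.2 and 9.79), and the part of this in the differences was not tested.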

How the results depend on the processing

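The 1715 calls between the ages became 1058 with size factors, 2854 in the 4 compared libraries alone, 773 with a log2 limit of 1 and 252 without both libraries described with another age. They ranged from 409 to 667 with 1 library left out, where the lone library is assumed to vary like the other groups. The 106 differences between epithelium and endothelium became 8 with a pseudocount of 0.1, 327 with no filter, 49 with a filter of 5, 26 with size factors and 4 without both described libraries, and ranged from 12 to 173 with 1 library left out.

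The titles' replicate numbers do not pair the ages, since descriptions name different sources and deviations of same-numbered epithelial libraries correlated at -0.0773. A replicate block by number gave 1755 calls and 72 differences. A block by the source described gave 1771 and 268.

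None of the 115 called genes among the 155 named reversed in any setting listed, but many lost their call. That was so for 28 with size factors, 27 with a pseudocount of 0.1 and 15 in the epithelial libraries alone. More lost it in each fit with 1 library left out. Of uncalled genes, size factors turned Nkx2-1 (0.0167), Krt18 (0.27), Cdh1 (0.18), Id2 (0.21), Shh (0.18), Etv5 (0.17) and Bmpr1a (0.0172) positive on the log2 scale. With 1 library left out, Krt18 ranged from -0.162 to 0.0713 (0.00037 without E18.5 replicate 1) and Id2 from -0.248 to 0.0276. The cause was not tested. With unknown depth, low values cannot be given a counting error.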
